A study of Mus musculus with 172 samples.

Results

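The period genes Per1, Per2 and Per3 and the cryptochrome genes Cry1 and Cry2, the negative limb of the circadian clock, were chosen by name from the expression tables of a mouse genetic panel, and all 5 were listed in cortex (among 14896 genes) and in liver (among 14107 genes). RNA-seq was done on 172 libraries of cerebral cortex and liver from male mice of the BXD panel, the recombinant inbred lines derived from C57BL/6J (B6) and DBA/2J (D2). One group was kept awake by gentle handling for 6 h from light onset (SD, for sleep deprivation), while the control group (Ctr) was left undisturbed in a different room, and both were killed at zeitgeber time 6 (ZT6, hours after light onset). All comparisons used 39 pools per tissue and condition: 33 BXD/RwwJ lines, 4 parental pools (B6-1, B6-2, D2-1 and D2-2, each strain being sampled on 2 occasions) and the reciprocal F1 crosses BD-F1 and DB-F1. A library is a pool of RNA from the mice of a line and condition. The spread between libraries therefore holds differences between lines together with those between the mice pooled, and the spread between mice of a line cannot be estimated. The room and the sleep deprivation cannot be told apart in this design. The libraries of 4 BXD/TyJ lines were described apart.

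In the clock, the activators CLOCK or NPAS2 together with BMAL1 (gene Arntl) bind E-box elements and drive transcription of the Per and Cry genes. PER and CRY proteins accumulate, enter the nucleus in a complex and repress these same activators, which closes the loop. Per1 and Per2 are also induced by signals outside the loop, through CRE, glucocorticoid and serum response elements, whereas D-box elements bind the PAR bZIP factors such as DBP and the repressor NFIL3.

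In the mm9 annotation Per1 lies on chr11:68908719-68923462 (plus strand), Per2 on chr1:93312561-93355907, Per3 on chr4:150377761-150418774, Cry1 on chr10:84594447-84647799 and Cry2 on chr2:92243803-92274200 (these 4 on the minus strand). No stretch of 100 bases, the read length of the study, in the protein-coding transcripts of the 5 genes occurred unchanged in such a transcript of another gene. Noncoding transcripts and the rest of the genome were not searched. The exons of Cry2 overlap those of D930015M05Rik on the opposite strand, and counting used the strand. RefSeq promoter windows of 300 bases (250 before and 50 after a transcription start, table build GRCm38.p6) were found for 4 of the 5 genes, with 2 windows for Per1 and none for Per2. Each window matched its own chromosome of mm9 at a single place on the strand given, and other chromosomes were not searched. The windows are shown as a description, and a relation of their letters to the response of the genes was not tested. Capitals mark an E-box (CACGTG), an E'-box (CACGTT or AACGTG), a D-box (TTATGTAA or TTACGTAA) or the CRE letters TGACGT, searched on both strands.
Per1, window 1 (chr11:68912201-68912500, plus strand): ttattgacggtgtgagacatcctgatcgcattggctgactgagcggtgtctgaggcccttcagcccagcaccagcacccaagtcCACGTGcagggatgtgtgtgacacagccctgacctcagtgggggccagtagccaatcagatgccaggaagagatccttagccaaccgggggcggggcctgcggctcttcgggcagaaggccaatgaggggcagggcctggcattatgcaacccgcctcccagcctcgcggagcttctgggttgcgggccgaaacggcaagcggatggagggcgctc
Per1, window 2 (chr11:68913404-68913703, plus strand): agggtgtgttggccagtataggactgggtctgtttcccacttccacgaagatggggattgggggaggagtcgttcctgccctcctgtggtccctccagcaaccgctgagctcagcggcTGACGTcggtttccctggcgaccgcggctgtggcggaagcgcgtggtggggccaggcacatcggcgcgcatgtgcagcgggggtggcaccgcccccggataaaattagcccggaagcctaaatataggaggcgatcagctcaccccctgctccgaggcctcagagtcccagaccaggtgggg
Per3 (chr4:150418725-150419024, minus strand): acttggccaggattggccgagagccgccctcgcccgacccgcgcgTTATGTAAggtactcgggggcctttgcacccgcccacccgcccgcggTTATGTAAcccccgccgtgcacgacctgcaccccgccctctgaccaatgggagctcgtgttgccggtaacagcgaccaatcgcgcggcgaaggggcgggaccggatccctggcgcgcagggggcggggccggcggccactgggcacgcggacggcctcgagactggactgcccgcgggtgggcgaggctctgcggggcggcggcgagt
Cry1 (chr10:84647750-84648049, minus strand): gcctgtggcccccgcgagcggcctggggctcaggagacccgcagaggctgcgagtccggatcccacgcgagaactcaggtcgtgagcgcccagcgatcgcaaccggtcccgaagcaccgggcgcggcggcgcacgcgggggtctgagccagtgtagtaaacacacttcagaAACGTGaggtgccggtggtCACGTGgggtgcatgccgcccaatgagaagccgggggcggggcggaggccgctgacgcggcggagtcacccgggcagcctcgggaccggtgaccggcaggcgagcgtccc
Cry2 (chr2:92274177-92274476, minus strand): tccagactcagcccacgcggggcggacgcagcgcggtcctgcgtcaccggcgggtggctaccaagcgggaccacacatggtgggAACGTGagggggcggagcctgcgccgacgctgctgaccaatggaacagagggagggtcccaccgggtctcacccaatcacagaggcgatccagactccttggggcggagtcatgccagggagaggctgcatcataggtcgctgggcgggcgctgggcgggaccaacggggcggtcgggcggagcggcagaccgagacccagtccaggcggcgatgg
An E-box stood in window 1 of Per1 and in the window of Cry1, and in 7.15% of all 32851 windows in the table. The E'-box stood in the windows of Cry1 and Cry2 (4.68% of all windows), and the D-box was present at 2 places in the window of Per3 (1.06% of all windows held at least 1). The letters TGACGT, part of the full CRE, stood in window 2 of Per1 (7.51% of all windows), and the full palindrome TGACGTCA in none of the 5 (1.79% of all windows). A match is a string of letters and not a site shown to be bound.

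Depth was higher in cortex (median of 22170272 reads counted to genes in Ctr and 22713295 in SD) than in liver (6752508 and 6563242), so that counting error was larger in liver. The reads per library on a single member ranged from 281 (Cry1) to 5543 (Cry2) in cortex and from 47 (Per3) to 1419 (Per1) in liver. All 7 cortex defining markers were listed in cortex, where after sleep deprivation 2 rose (among them Neurod6 by 0.38) and 2 fell (Tbr1 by -0.17 and Slc17a7 by -0.12). All 7 liver defining markers were listed in liver, where 1 rose (Pck1 by 0.14). The counts of markers in this paragraph stand against the 68.4% of all genes called in cortex (33.0% up and 35.4% down) and the 44.2% called in liver (21.5% up and 22.6% down). Of 8 glial and vessel markers in cortex, 1 rose and 3 fell, P2ry12 of microglia by -0.33 on the log2 scale, and the 2 endothelial markers went opposite ways (Cldn5 -0.24, Pecam1 0.17), with a summed level of 11.2 to 11.9 log2 CPM in both conditions. Of the 8 non-hepatocyte markers listed in liver, 1 rose and 3 fell, among them Cd79a of B cells by -1.82, with a summed level of 7.31 to 8.64 in Ctr and 7.18 to 8.87 in SD. Their part in the results on the Per and Cry genes was not tested, and in bulk tissue fewer cells of a type cannot be told apart from less RNA per cell.

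Per the study's methods, BXD85 was a line with fewer mice than most. The number pooled for its libraries is not stated, and such a library may hold the RNA of a single mouse. The Ctr liver pool of BXD85 stood apart from the other Ctr liver pools. Its Per3 level was 2.74 log2 CPM (next lowest 5.10), its Per2 level 4.23 (next lowest 5.65), its Cry2 level 6.49 (next lowest 6.55) and its Cry1 level 6.18 (next highest 5.48), while its Per1 level of 4.68 lay within the range of the others. Of 21 core clock genes listed in liver, 10 lay below and 4 above the range of the other 38 Ctr pools, the most of any line in any group. Among them the activators Arntl (6.81, against 3.05 to 5.38) and Npas2 (4.95, against -1.14 to 3.27) were above, and Dbp (4.98, against 6.67 to 7.55) and Ciart (0.16, against 2.49 to 5.64) below. The SD liver pool of BXD85 lay inside the range of the others for all 21. What set the Ctr pools of BXD85 apart was not tested, and liver results on the Per and Cry genes whose call changes without BXD85 are given both ways.

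**Figure D1:**
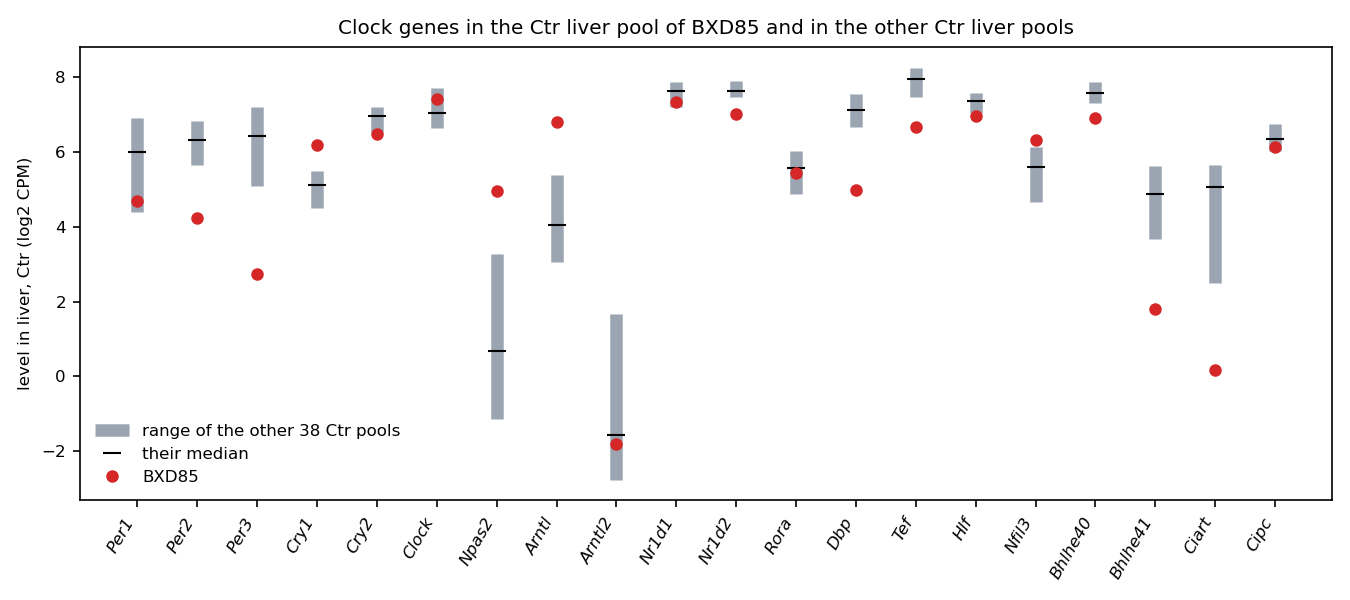
Levels (log2 CPM, vertical axis) of core clock genes in the Ctr liver libraries, with the BXD85 pool as a red point, the range of the other 38 pools as a grey bar and their median as a black dash. The red points for Per2, Per3 and Cry2 lie below their bars and that for Cry1 above its bar.

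In cortex, Per1, Per2 and Cry1 rose after sleep deprivation, Per2 the most, and Per3 and Cry2 did not pass the test. Per1 was raised 1.66-fold, Per2 2.02-fold and Cry1 1.24-fold, so 3 of 5 members were called up and none down, where 33.0% of all cortex genes were called up, 35.4% down and 68.4% in either direction. Differences are given as SD minus Ctr on the log2 CPM scale with their standard error, and p-values come from limma, adjusted over all genes of the tissue with the Benjamini-Hochberg method.

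Per1, the period gene most quickly induced by outside signals, ranged from 6.26 (BXD70) to 7.14 log2 CPM (D2-1) in Ctr cortex, with a median of 6.83. In SD it ranged from 7.25 (BXD89) to 7.76 (BXD66), with a median of 7.50. The groups did not overlap, which held for 1.40% of all cortex genes. The mean went from 6.77 ± 0.19 to 7.51 ± 0.13 (standard deviation, n = 39), an increase of 0.73 ± 0.04 (adjusted p = 2.29e-31), and Per1 was higher in 39 of 39 pairs.

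Per2, the period gene most needed for a stable rhythm, ranged in Ctr cortex from 4.77 (BXD70) through a median of 5.35 to 5.798 log2 CPM (BXD56). In SD it ranged from 5.804 (BXD45) through a median of 6.40 to 6.66 (BXD50). These groups met almost end to end without overlapping. The mean rose from 5.36 ± 0.25 to 6.38 ± 0.18 (standard deviation, n = 39), by 1.01 ± 0.05 (adjusted p = 2.38e-32), and this was the 157th largest absolute change of the 14896 genes. The smallest changes of both Per1 (0.12) and Per2 (0.33) belonged to BXD89, whose Ctr level of Per1 was the second highest (7.13). As the change is SD minus Ctr, a high Ctr level by itself makes it smaller.

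Per3, the period gene least needed for the core rhythm, ranged from 6.07 (BXD90) through a median of 6.46 to 6.82 log2 CPM (BXD83) in Ctr cortex and from 6.04 (BXD51) through 6.55 to 6.86 (BXD64) in SD. The groups overlapped almost fully. Its change was 0.02 ± 0.04, with a 95% interval from -0.06 to 0.11 and an adjusted p of 0.629, and 21 pairs were higher in SD and 18 lower.

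Cry1, the cryptochrome whose loss shortens the rhythm, where loss of Cry2 lengthens it, ranged from 3.68 (BXD43) through a median of 4.01 to 4.40 log2 CPM (BXD56) in Ctr cortex. In SD it ranged from 3.98 (BXD45) through 4.32 to 4.53 (BXD44). The groups overlapped, with 9 of the 39 SD pools above every Ctr pool. Its mean rose from 4.00 ± 0.15 to 4.31 ± 0.12 (standard deviation, n = 39), by 0.31 ± 0.03 (adjusted p = 1.48e-14), and 38 of 39 pairs were higher (at least 38 of 39 pairs shared a sign for 19.3% of all cortex genes), BXD56 being the exception (-0.05).

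Cry2, the other cryptochrome, was the steadiest member in cortex, from 7.20 (BXD56) through a median of 7.49 to 7.58 log2 CPM (D2-1) in Ctr and from 7.34 (BXD55) through 7.47 to 7.63 (BXD66) in SD. Ctr and SD pools overlapped over most of their range. The change was -0.0008 ± 0.02, with a 95% interval from -0.03 to 0.03 and an adjusted p of 0.968. This call depends on the scaling of the libraries, since after quantile normalization the change was -0.04 with an adjusted p of 0.0227.

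**Figure D2:**
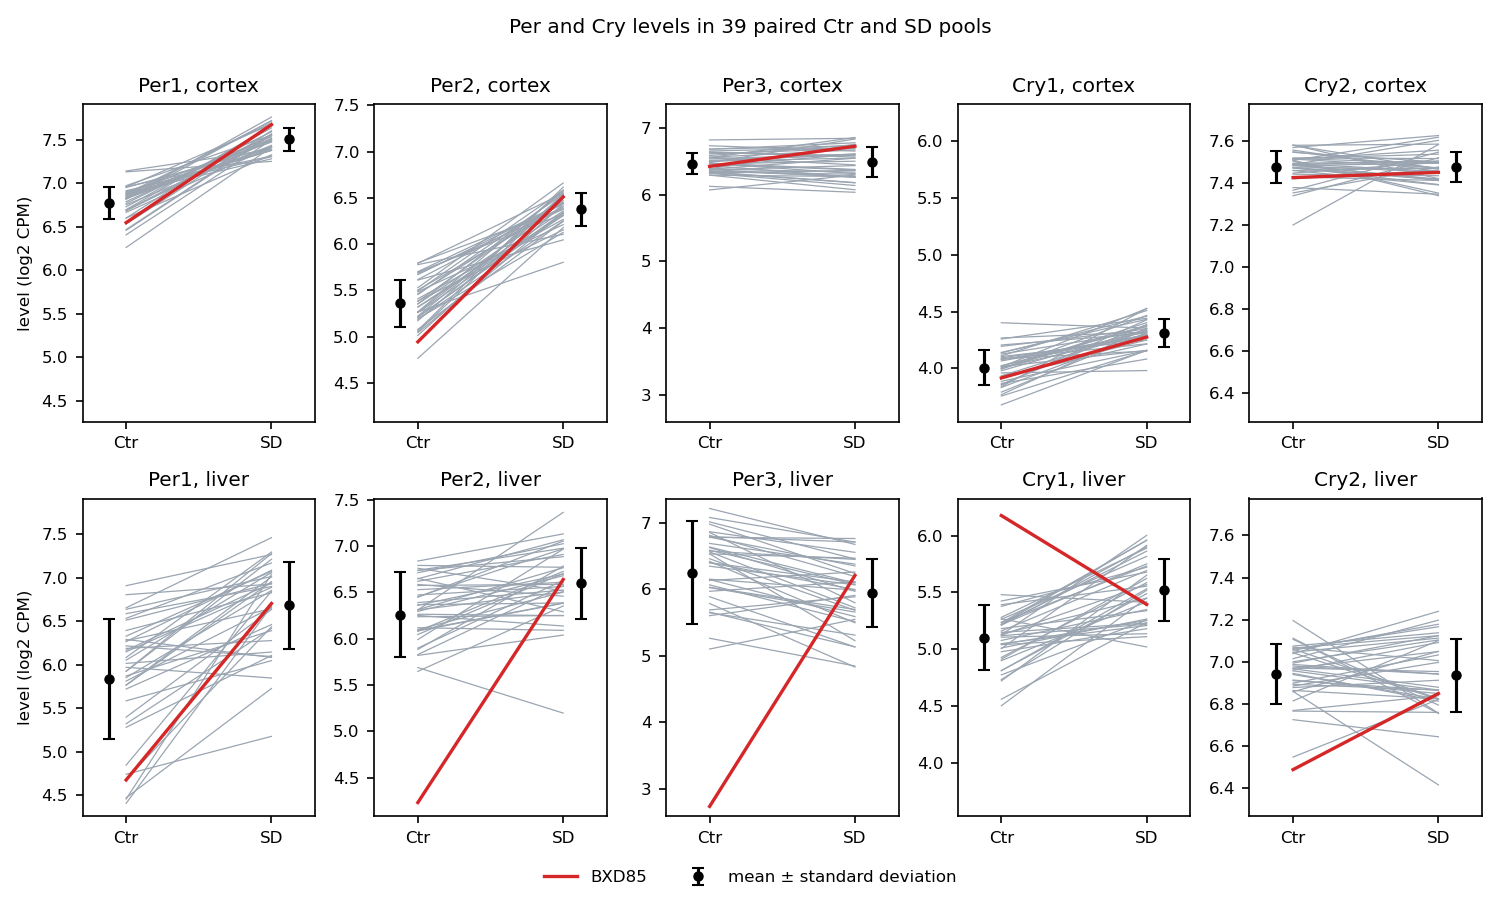
Levels (log2 CPM, vertical axes, shared within a gene) of the 5 genes in Ctr and SD in cortex (top) and liver (bottom). Each line joins the Ctr and SD pools of 1 of 39 pairs, BXD85 is red, and black points with bars give the mean ± standard deviation; in cortex all lines rise for Per1 and Per2, and in liver the lines are more spread and BXD85 runs against the others for Per3 and Cry1.

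In liver Per1, Cry1 and Per2 rose, Per1 1.80-fold, Cry1 1.34-fold and Per2 1.26-fold. Per3 was lower in 33 of 39 pairs, and whether it passed the test depended on the pool of BXD85 and on the pairing. Again 3 of 5 members were called up and none down, where 21.5% of all liver genes were called up, 22.6% down and 44.2% in either direction.

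Per1 ranged from 4.41 (BXD56) through a median of 5.97 to 6.91 log2 CPM (BXD103) in Ctr liver and from 5.18 (BXD101) through 6.84 to 7.46 (BXD79) in SD. The groups overlapped, although 16 of 39 SD pools lay above every Ctr pool. The mean rose from 5.84 ± 0.69 to 6.68 ± 0.50 (standard deviation, n = 39), by 0.85 ± 0.13 (adjusted p = 1.14e-07), in 36 of 39 pairs. The largest changes were those of BXD95 (2.58) and BXD56 (2.27), the lines with the lowest Per1 levels in Ctr. Since the Ctr level is subtracted, a low value there by itself makes the change larger.

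Per2 ranged from 4.23 (BXD85) through a median of 6.31 to 6.84 log2 CPM (BXD97) in Ctr liver and from 5.20 (BXD70) through 6.61 to 7.36 (BXD65) in SD. Most of the SD pools lay among the Ctr pools, and 10 lay above them all. The mean rose from 6.26 ± 0.46 to 6.60 ± 0.38 (standard deviation, n = 39), by 0.34 ± 0.09 (adjusted p = 0.0019), in 31 of 39 pairs. Without BXD85, whose change was 2.41, the increase was 0.28 ± 0.08 (adjusted p = 0.00237).

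Per3 ranged from 2.74 (BXD85) through a median of 6.42 to 7.21 log2 CPM (BXD79) in Ctr liver and from 4.83 (BXD95) through 6.00 to 6.76 (BXD89) in SD. No SD pool lay above the highest Ctr pool. The mean went from 6.25 ± 0.77 to 5.94 ± 0.51 (standard deviation, n = 39), a difference of -0.31 ± 0.14 with an adjusted p of 0.075, while 33 of 39 pairs were lower. The change of BXD85 was 3.47, against a next highest of 0.45 (BXD101). Without BXD85 Per3 fell by -0.41 ± 0.11 (adjusted p = 0.00237), and with line as a replicate block and all 39 pairs the change of -0.31 ± 0.11 also passed (adjusted p = 0.0139).

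Cry1 ranged from 4.50 (B6-1) through a median of 5.12 to 6.18 log2 CPM (BXD85) in Ctr liver and from 5.02 (BXD67) through 5.52 to 6.00 (BXD87) in SD. No SD pool exceeded the BXD85 Ctr pool, and 13 of 39 Ctr pools lay below every SD pool. The mean rose from 5.10 ± 0.29 to 5.52 ± 0.27 (standard deviation, n = 39), by 0.42 ± 0.06 (adjusted p = 2.57e-08), in 36 of 39 pairs. The lowest change was that of BXD85 (-0.78), and without it the increase was 0.45 ± 0.06 (adjusted p = 2.87e-10).

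Cry2 ranged from 6.49 (BXD85) through a median of 6.97 to 7.20 log2 CPM (BXD51) in Ctr liver and from 6.41 (BXD70) through 6.91 to 7.24 (BXD48) in SD. The groups shared nearly all of their range. The change was -0.004 ± 0.04 with a 95% interval from -0.07 to 0.07 (adjusted p = 0.943), and 19 pairs were higher and 20 lower.

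The response of Per2 and Per3 differed between the tissues. For each pair of pools the change in liver was set against that in cortex, since the tables of the tissues were normalized separately and only changes within a tissue can be compared. Per2 rose less in liver, by -0.68 ± 0.07 (95% interval -0.83 to -0.53, adjusted p = 2.11e-10), and Per3 was lower in liver relative to cortex by -0.33 ± 0.11 (adjusted p = 0.00723). These were 2 of 5 members, where 57.6% of the 12695 genes listed in both tissues differed. Without BXD85 the differences were -0.72 ± 0.07 for Per2 and -0.42 ± 0.06 for Per3 (adjusted p = 2.41e-12 and 3.49e-07), and without the pairing of the pools that of Per3 no longer passed (adjusted p = 0.0621).

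For Per1 the difference between the tissues was 0.12 ± 0.08, with a 95% interval from -0.05 to 0.28 (adjusted p = 0.219). For Cry2 it was -0.003 ± 0.03, with an interval from -0.07 to 0.07 (adjusted p = 0.947). For Cry1 it was 0.11 ± 0.06, with an interval from -0.01 to 0.24 (adjusted p = 0.113), and it passed without BXD85 (0.15 ± 0.05, adjusted p = 0.02) and, narrowly, without BXD67 (0.13, adjusted p = 0.0496).

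**Figure D3:**
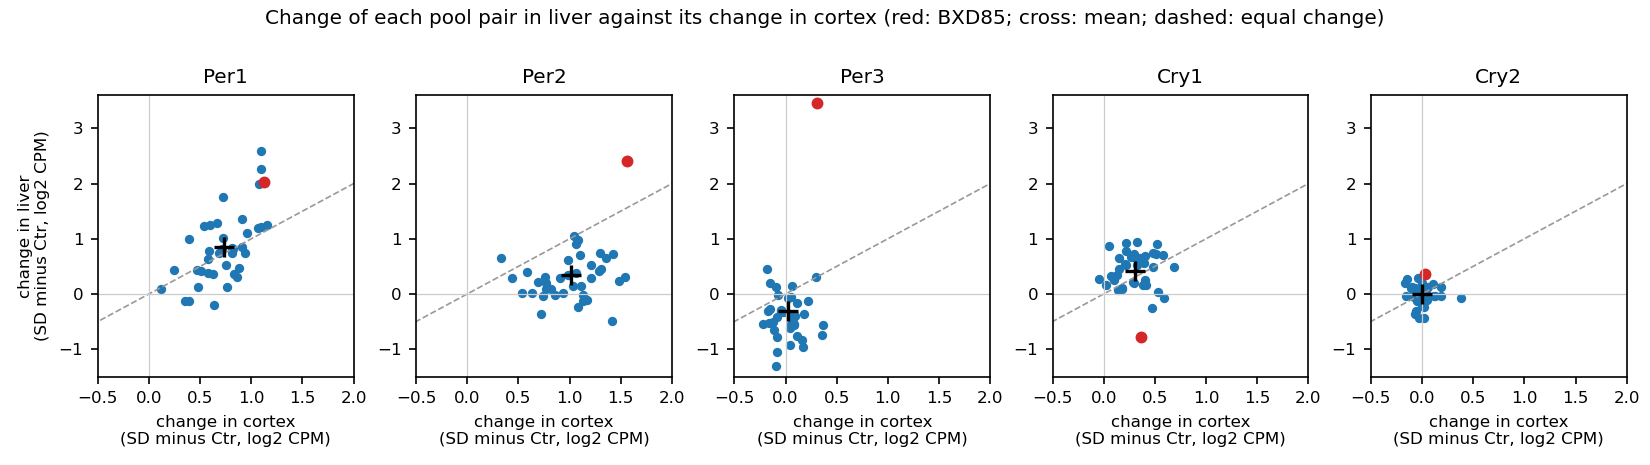
Change (SD minus Ctr, log2 CPM) of each of 39 pairs in liver (vertical axis) against its change in cortex (horizontal axis), with BXD85 in red, the mean as a cross, and a dashed line of equal change. Points of Per2 lie mostly below the dashed line, those of Per1 rise along it, and those of Cry2 stay close to 0 on both axes.

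Ratios of members within a library, which do not depend on how libraries were scaled, showed that the 5 genes moved unequally. All 10 pairs of members were tested in each tissue with a two-sided paired permutation test over the 39 pools, and 9 of 10 ratios shifted in cortex and 9 of 10 in liver after adjustment over the 20 tests. In cortex, Per2 gained on Per1, with a log2 ratio of Per1 to Per2 that went from 1.41 to 1.13 (change -0.28 ± 0.04, standard error, adjusted p = 1.43e-05), and the ratio rose in only 2 of 39 pools. In liver the same ratio went the other way, from -0.43 to 0.08 (change 0.51 ± 0.10, adjusted p = 1.43e-05), in 31 of 39 pools. This adjusted p rests on 1e-05, the smallest value that 100000 resamples can give.

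The ratio of the cryptochromes, Cry1 to Cry2, rose by 0.31 ± 0.03 in cortex (38 of 39 pools) and by 0.42 ± 0.06 in liver (35 of 39 pools), in both with an adjusted permutation p of 1.43e-05. The ratio of Per3 to Cry2, the members that did not pass in cortex, changed there by 0.03 ± 0.02 (adjusted permutation p = 0.288) and in liver by -0.30 ± 0.11 (adjusted permutation p = 0.00374), or -0.39 without BXD85. Per2 to Cry1 in liver was the other ratio that did not pass, at -0.08 ± 0.11 (adjusted permutation p = 0.515), and without BXD85 it was -0.17 (adjusted permutation p = 0.0321).

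Between genes, levels were compared per length, as log2 CPM per kb of exon in the mm9 annotation. This length was that of all Gencode exons of a gene, whereas reads were counted on RefSeq genes. For Per3 it was 9608 bases, against 5999 in the longest protein-coding transcript. In Ctr cortex the order was Cry2 (4.82 ± 0.07), Per1 (4.28 ± 0.19), Per3 (3.20 ± 0.16), Per2 (2.81 ± 0.25) and Cry1 (2.41 ± 0.15, standard deviation, n = 39). Each gene exceeded the next in at least 37 of 39 libraries. In SD cortex Per1 (5.01 ± 0.13) stood above Cry2 (4.82 ± 0.07) in 38 of 39 libraries, and Per2 (3.83 ± 0.18) above Per3 (3.23 ± 0.23) in 39 of 39.

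In liver several neighbours in this order were not apart beyond their spread. In Ctr liver Cry2 (4.28 ± 0.14) led Per2 (3.71 ± 0.46) in 37 of 39 libraries, whereas Cry1 (3.51 ± 0.29) exceeded Per1 (3.34 ± 0.69) in 21 of 39, and Per3 (2.99 ± 0.77) came last. In SD liver Cry2 (4.28 ± 0.17) exceeded Per1 (4.19 ± 0.50) in 17 of 39 libraries, and Per3 (2.68 ± 0.51) was below Cry1 (3.93 ± 0.27) in all 39. The order depends on the length used: by the longest protein-coding transcript Cry2 also led in SD cortex (5.48 against 5.28 for Per1), and Per3 stood above Per2 there (3.91 against 3.83) and above Per1 and Cry1 in Ctr liver (3.67 against 3.61 and 3.51).

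**Figure D4:**
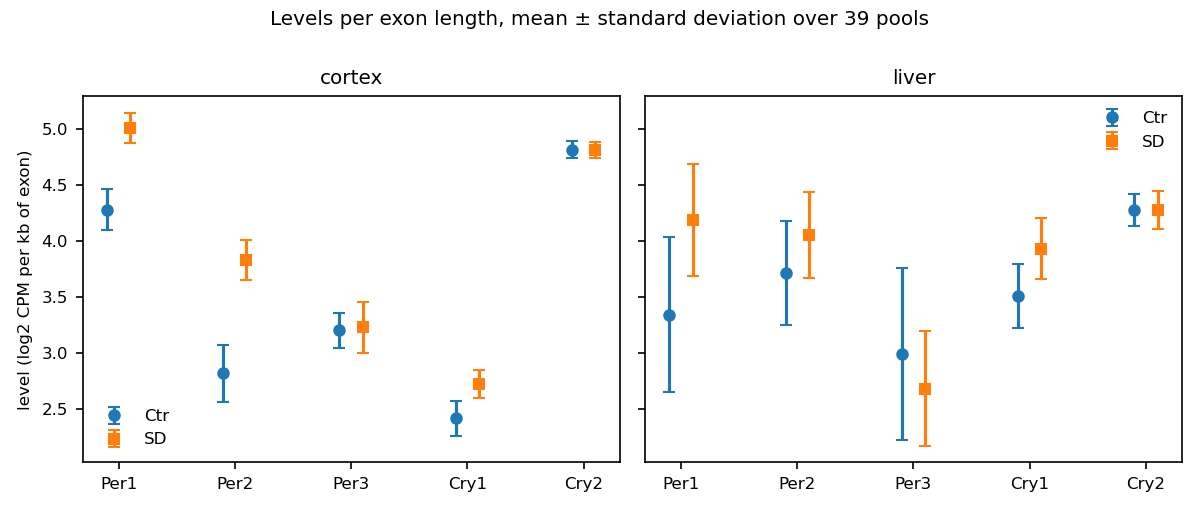
Level per kb of exon (log2 scale, vertical axis) of each gene in cortex and liver, as mean ± standard deviation over 39 pools in Ctr (circles) and SD (squares). Per1 overtakes Cry2 in SD cortex, and the bars of Per1, Per2 and Cry1 overlap in liver.

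By a test of genotype, the lines differed in Per3 in cortex, and in liver in the 3 period genes and Cry2. Per the study's methods, Ctr and SD mice of a line were paired within collection cohorts. A cohort effect shared by both pools of a line therefore cannot be told apart from a line effect here. A moderated F test of genotype (37 genotypes, 39 pools per condition, condition as covariate) called 1 of 5 members in cortex, where 55.5% of all genes were called, and 4 of 5 in liver, where 62.1% were. For Per3 in cortex F was 6.96 (adjusted p = 8.55e-09), and genotype took 84.9% of the variance left after condition. With so many genotypes this share is large even where the test does not pass: it was 37.4% (Per1) to 59.2% (Cry1) for the other members in cortex. The other cortex members did not pass, with F values of 1.71 (Cry1, adjusted p = 0.0694), 1.32 (Per2, 0.231), 1.07 (Cry2, 0.448) and 0.78 (Per1, 0.797).

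The parental strains were on opposite sides for Per3 in cortex. The B6 pools had 6.37 and 6.47 log2 CPM in Ctr and 6.44 and 6.32 in SD, and the D2 pools 6.74 and 6.59 in Ctr and 6.66 and 6.75 in SD. All 4 D2 libraries were above all 4 B6 libraries. The F1 pools had 6.54 and 6.56 in Ctr and 6.61 and 6.67 in SD.

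In liver the F test gave 3.07 for Per1 (adjusted p = 0.000736), 2.86 for Per3 (adjusted p = 0.00145), 2.52 for Per2 (adjusted p = 0.00429), 2.16 for Cry2 (adjusted p = 0.0146) and 1.67 for Cry1 (adjusted p = 0.0727). Without BXD85 the F of Per3 was 7.84 (adjusted p = 4.02e-09), that of Per2 3.73 (adjusted p = 0.00012), and that of Cry1 passed (2.02, adjusted p = 0.0239). The standard deviation of Per1 between Ctr pools was 0.69 in liver and 0.19 in cortex, and that of Per3 was 0.77 (0.51 without BXD85) in liver and 0.16 in cortex. Counting error alone would give 0.08 and 0.03 for Per1 and 0.07 and 0.03 for Per3. Repeated pools of a parental strain also differed: the change of Per1 in liver was 0.84 in B6-1 and 0.13 in B6-2, and that of Per2 was 0.98 and 0.14. In D2-1 and D2-2 the change of Per1 was 0.43 and 0.82, and that of Per2 -0.36 and -0.13.

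Whether a line that was high in one setting was high in another was examined over the 37 genotypes, with parental pools averaged. In all, 40 relations were computed, each with a two-sided permutation p adjusted over the 40. Each point is the mean of pooled mice, and the change of a gene uses the same libraries as that of any other gene in that tissue. Cortex and liver were collected from the same set of mice. Whether the pools of a line held the same animals in both tissues is not stated. After adjustment 16 relations passed with all lines and 10 without BXD85, of which 9 passed in both.

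Ctr and SD levels of Per3 were related in cortex (Pearson r = 0.76 and Spearman rho = 0.79, adjusted permutation p = 0.000133 for each, r = 0.77 without the 2 genotypes farthest from the median). In liver the relation for Per3 was r = 0.42 (adjusted permutation p = 0.0251) with rho = 0.71 (adjusted permutation p = 0.000133), and without BXD85 r was 0.75 (adjusted permutation p = 0.0001). For Per2 in liver r was 0.37 (adjusted permutation p = 0.0748), and 0.56 without BXD85 (adjusted permutation p = 0.00171). For Per1 the Ctr and SD levels were related in liver (r = 0.44, adjusted permutation p = 0.0251, rho = 0.44, adjusted p = 0.0243, r = 0.55 without the 2 farthest genotypes). In cortex the relation for Per1 was r = -0.23 with an adjusted permutation p of 0.28.

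The genotype F test of Per1 in cortex did not pass (F = 0.78, adjusted p = 0.797), and both tissues came from the same set of mice. Relations between the tissues are thus relations between pools and were not shown to be traits of the lines. Per1 was the member whose Ctr level and change were both related between cortex and liver. Its Ctr level in liver rose with that in cortex (r = 0.66, adjusted permutation p = 0.00032, rho = 0.59, adjusted p = 0.00114, r = 0.55 without BXD56 and BXD70), and so did its change (r = 0.66, adjusted permutation p = 0.0002, rho = 0.60, adjusted p = 0.0006, r = 0.65 without BXD70 and BXD89). Without BXD85 these were r = 0.64 and r = 0.63. For Cry1, Cry2 and Per3 no relation between the tissues passed in r, with r from -0.09 to 0.28 (the Ctr levels of Per3 passed by rank alone, rho = 0.47, adjusted permutation p = 0.0149), and for Per2 the Ctr levels passed with all lines (r = 0.38, adjusted permutation p = 0.0483) but not without BXD85 (r = 0.27, adjusted permutation p = 0.216).

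Within cortex, the change of Per2 went together with those of the other 2 responding genes. The genotype F test in cortex did not pass for Per1, Per2, Cry1 or Cry2. Relations among their changes are thus also relations between pools and were not shown to be traits of the lines. The change of Per2 was related to that of Per1 (r = 0.69, adjusted permutation p = 0.000133, rho = 0.66, adjusted p = 0.0003, r = 0.62 without the 2 farthest genotypes) and to that of Cry1 (r = 0.68, adjusted permutation p = 0.000133, rho = 0.69, adjusted p = 0.000133, r = 0.67 without them). The changes of Per1 and Cry2 were also related (r = 0.51, adjusted permutation p = 0.00526, rho = 0.60, adjusted p = 0.00048, r = 0.59 without the 2 farthest), although Cry2 did not change on average. For Per1 and Cry1 the relation was r = 0.34 and did not pass (adjusted permutation p = 0.0897). Changes of Per3 and Cry2 passed with all lines (r = 0.40, adjusted permutation p = 0.042, rho = 0.33 with 0.115, r = 0.22 without the 2 farthest). Without BXD85 they did not pass (r = 0.41, adjusted permutation p = 0.0524).

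Within liver the relations between changes rested largely on BXD85. For Per2 and Per3, r was 0.77 (adjusted permutation p = 0.00107) and rho 0.47 (adjusted permutation p = 0.0149) with all lines, and r was 0.41 without BXD85 (adjusted permutation p = 0.0468), and 0.45 without the 2 farthest genotypes. For Per3 and Cry1, r was -0.60 with all lines (adjusted permutation p = 0.01, rho = -0.25 with 0.245) and -0.24 without BXD85 (adjusted permutation p = 0.28). For Per2 and Cry1, r went from -0.41 (adjusted permutation p = 0.0477, rho = -0.05 with 0.85) to -0.002. The relations of Per1 with Per2 (r = 0.41), Per2 with Cry2 (0.40) and Per3 with Cry2 (0.44) also passed with all lines and not without BXD85, where r was 0.29, 0.26 and 0.34 (adjusted permutation p = 0.181, 0.242 and 0.13).

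Over all genes, those with the change most like a member's across the 39 pairs were looked up as a description, by Pearson r. In cortex, Per1 was most like Bhlhe40 (r = 0.76), Nr4a1 (0.75) and Synpo (0.72), and Per2 most like Pfkfb3 (0.81), Bhlhe40 (0.80) and Dusp4 (0.78). Cry1 was most like Dusp4 (0.74), Ptgs2 (0.72) and Midn (0.68), Per3 like Klf15 (0.64), Ccbe1 (0.61) and Rnf169 (0.59), and Cry2 like Kctd1 (0.81), Lamp5 (0.78) and Gria3 (0.78). Bhlhe40 encodes a repressor that binds E-boxes, and Nr4a1 and Ptgs2 are activity-induced genes.

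In liver, Per1 was most like Ccrn4l (r = 0.77), which encodes the rhythmic deadenylase Nocturnin, Usp2 (0.68) and Kcnk5 (0.68). Cry2 was most like Fnip2 (0.78), Ppargc1b (0.78) and Npc1 (0.76), and Cry1 like Desi2 (0.67), Slc45a3 (0.66) and Slc2a1 (0.64). Per2 was most like Per3 (0.77), Zfp704 (0.75) and 1700001L05Rik (0.75), and Per3 like Wee1 (0.80), Dbp (0.78) and Bhlhe41 (0.78). Without BXD85 the r for Per2 was 0.48 with Per3, 0.63 with Zfp704 and 0.49 with 1700001L05Rik, and that for Per3 was 0.45 with Wee1, 0.17 with Dbp and 0.35 with Bhlhe41.

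The counts over lists of other genes around the Per and Cry genes stand against the 68.4% (33.0% up and 35.4% down) of all genes called in cortex and the 44.2% (21.5% up and 22.6% down) called in liver. The activators of the loop rose in cortex: 3 of 4 passed, with Npas2 at 0.34 ± 0.02 and Arntl at 0.32 ± 0.03 (adjusted p = 1.55e-23 and 9.41e-17), and the median of the list was 0.29, against -0.01 for all cortex genes. In liver 1 of 4 passed, Clock at 0.17 ± 0.07 (adjusted p = 0.0292, and 0.216 in the 33 BXD/RwwJ lines alone, with the call also lost without BXD71, BXD83 or B6-1), with a list median of 0.04 against -0.002 for all genes. In the Rev-erb and Ror loop, which controls Arntl, 4 of 5 genes fell in cortex, among them the repressor Nr1d1 (-0.36 ± 0.03). In liver Nr1d1 fell by -0.12 ± 0.04 and Nr1d2 rose by 0.08 ± 0.03, and the other 2 listed did not pass.

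Of the D-box factors, Dbp fell in cortex by -0.77 ± 0.06 and the repressor Nfil3 rose by 1.00 ± 0.05, each in 39 of 39 pairs, with 1 of 4 genes of this list called up and 2 down. In liver Tef (0.13 ± 0.05) and Hlf (0.12 ± 0.03) rose and none of the 4 fell. Among the other E-box repressors, Bhlhe40 rose by 0.65 ± 0.04 in cortex, where Ciart (Gm129 in the tables, -0.51 ± 0.06) and 2 more fell, while in liver Ciart (0.51 ± 0.17, and 0.40 without BXD85) and Cipc (0.39 ± 0.03) rose.

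Of the 12 kinases and phosphatases that act on PER and CRY proteins, 6 rose and 3 fell in cortex (68.4% of all genes were called there in either direction, and 44.2% in liver), with Csnk1a1 at 0.24 ± 0.02 and Prkaa1 at -0.17 ± 0.02, and 4 rose and 3 fell in liver, with Csnk1e at -0.21 ± 0.06 and Csnk2a2 at 0.15 ± 0.03. Of 9 ubiquitin ligases and deubiquitinases, 2 rose and 5 fell in cortex and 1 rose and 3 fell in liver. Fbxl21, which marks CRY proteins with ubiquitin, fell in both tissues (-0.37 ± 0.05 and -0.67 ± 0.08), and the deubiquitinase Usp2 was lower in SD cortex (-0.47 ± 0.03) and higher in SD liver (0.75 ± 0.15). Of 10 partners of the PER and CRY complexes, 6 rose and 3 fell in cortex, with Sfpq at 0.39 ± 0.02 and Tipin at -0.42 ± 0.05, and 2 rose and 2 fell in liver, with Sfpq at 0.24 ± 0.02 and Chd4 at -0.12 ± 0.03.

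In the route from CRE elements to Per transcription, 8 of 11 genes rose in cortex and none fell (33.0% of all cortex genes rose and 35.4% fell), led by the kinase Sik1 (1.47 ± 0.06), which restrains this route, and Crem (0.86 ± 0.04). The median of that list in cortex was 0.12, and in liver 0.04, where 4 of 11 rose and 1 fell (21.5% and 22.6% of all liver genes), with Creb1 at 0.31 ± 0.04 and Crem at 0.22 ± 0.04. Of 8 genes of the glucocorticoid, heat shock and serum response routes, 7 rose and 1 fell, the receptor gene Nr3c1, in cortex (median 0.79), with Hspa1b at 1.35 ± 0.07 and Dusp1 at 1.15 ± 0.06, and 6 rose and none fell in liver (median 0.44), with Hspa1b at 1.74 ± 0.11 and Fkbp5 at 1.30 ± 0.08.

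**Figure D5:**
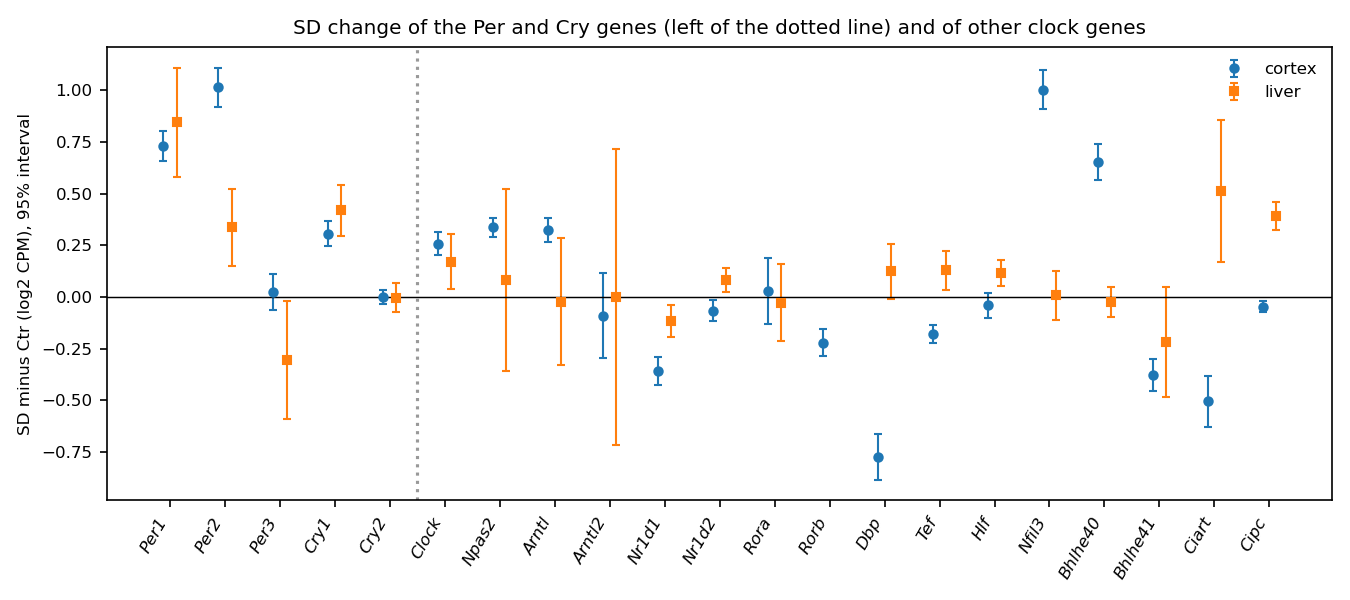
Change (SD minus Ctr, log2 CPM, vertical axis) with its 95% interval for the Per and Cry genes and other core clock genes in cortex (circles) and liver (squares), from 39 pools per group. Per1, Per2, Nfil3 and Bhlhe40 lie highest in cortex, and in liver Per1 lies highest, at 0.85.

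The 4 BXD/TyJ lines (BXD05, BXD29, BXD29t and BXD32) were kept out of the tests. In cortex Per1 changed by 0.73 to 1.08, Per2 by 0.88 to 1.39 and Cry1 by 0.26 to 0.40, all upwards in 4 of 4 lines. In liver Per1 changed by 0.87 to 1.62, in 4 of 4 lines upwards, Cry1 by -0.03 to 1.26 (3 of 4) and Per2 by -0.20 to 0.81 (2 of 4). Per3 changed by -0.20 to 0.53 in cortex and by -0.69 to 0.17 in liver, and Cry2 by -0.08 to -0.02 and by -0.15 to 0.02.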

How the data were processed

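RNA-seq of cortex and liver was read as the authors deposited it, in log2 CPM. Per the study's methods and the submitters' processing notes, stranded single-end reads passed FastQC, were aligned to mm9 with STAR, counted on RefSeq genes with HTSeq, filtered for low counts, and normalized in edgeR by TMM. Whole reads (within 0.02 of a read) were recovered for 100% of values, with a prior count near 1. From these values limma 3.58.1 (R 4.3.3, eBayes with a variance trend) tested condition, genotype and the tissue difference over all genes. The threshold was an adjusted p of 0.05. Simulated data with known changes were used to test the fit of condition, and not those of genotype and the tissue difference. Permutation tests used numpy 2.4.6. The tests of condition used no block, and the tissue difference had the line as a replicate block. Ctr and SD pools of a line deviated together (correlation of at least 0.30 in cortex and 0.17 in liver over all 39 pairs), so a fit with line as block is given where it changed a call. The members and gene lists were chosen with earlier results of these data known. Named besides the members were the 2 called genes of each list with the largest change in a tissue and the 3 genes most like each member; Slc17a7, Pecam1, Nr3c1 and the values of the BXD85 pool were chosen after they were seen. A few genes of the lists are counted but not reported here by name. Alternatives without BXD85 in the genotype tests, ratios and relations were also chosen after seeing the data.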

Additional observations from a re-analysis of the deposited data

Results flagged for a closer look

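The change of Per2 was smaller in liver than in cortex by -0.68 on the log2 scale, and that of Per3 was lower in liver than in cortex by -0.33; both differences passed limma's test of the difference itself (adjusted p = 2.11e-10 and 0.00723). The change of Per1 in cortex in the BXD/TyJ line BXD05 was 1.08, apart from the 0.73 to 0.78 of the other 3 BXD/TyJ lines. It was 1 of 30 groups of 4 values examined, and chance sets about 1 in 20 such groups apart.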

How the results depend on the processing

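The changes of Per1, Per2 and Cry1 in both tissues kept their direction and call under all alternatives run: the line block, median centring, quantile normalization, voom on recovered reads, a larger prior count, a filter on low values, fits without a variance trend, the 33 BXD/RwwJ lines alone, all 43 pools, parental pools averaged, and lines left out. The tissue difference of Per2 did so under the same set, except that voom was not run for it and the block was removed and not added. With line as a replicate block, Per3 in liver passed (-0.31), as it did with voom and the block (-0.36), without BXD79, BXD85 and BXD101 (-0.43), and without BXD85 with the block (-0.41). The block changed no other member's call for the SD change. Without it the tissue difference of Per3 was -0.33 and no longer passed (adjusted p = 0.0621).

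Leaving out single lines gave a Per3 change in liver from -0.41 (without BXD85) to -0.28, a Cry2 change between -0.011 and 0.0036 (cortex) and between -0.014 and 0.0077 (liver), and a tissue difference between 0.094 and 0.15 for Cry1 and between -0.014 and 0.0091 for Cry2. Small values turned sign: under quantile normalization Per3 in cortex (-0.0085) and the tissue difference of Cry2 (0.0207), under median centring Cry2 in liver (0.0020) and its tissue difference (0.0070), and without BXD79, BXD85 and BXD101 Cry2 in cortex (0.0032). Cry2 in cortex passed under quantile normalization (-0.041). Without those 3 lines Cry1 passed for the tissue difference (0.14) and for line differences in liver (F = 1.99, and 2.02 without BXD85). Relations past the threshold numbered 10 without BXD85 and 16 with it. The cause of these shifts was not tested. Over all genes, limma called 10191 in cortex and 6229 in liver, voom on the recovered reads 10199 and 6280, and the fit with the block 11359 and 7603. Liver depth limits precision, and pooled RNA leaves no estimate of the spread between mice.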
